A study of Solanum lycopersicum with 39 samples.

Results

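The first 2 h of heat stress were examined in leaves of the tomato cultivar M82. The comparison held 6 of the 39 libraries of the series: 3 from untreated plants (0 h) and 3 from plants kept at 42 °C for 2 h. Both groups were wild-type M82 leaves, with 38 days given as the age in the labels and a lower age in the methods of the study, raised at 25 °C and 70% humidity with 16 h of light at 800 μmol per m2 per s and 8 h of dark. The heat treatment ran at 90% humidity, so temperature and humidity changed together and cannot be told apart, and no untreated plants of the 2 h time were among the samples, so the effect of heat cannot be told apart from that of the clock time either. All genes with at least 1 FPKM (fragments per kilobase of transcript, scaled to the mapped fragments of the library) in at least 3 of the 18 heat libraries were tested, which were 18923 of the 34075 genes listed.

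When a leaf is suddenly heated, proteins begin to unfold. Heat shock transcription factors (HSFs) then switch on genes for heat shock proteins (HSPs), chaperones that hold, refold or remove unfolded proteins. Small HSPs bind unfolding proteins and keep them soluble, while HSP70 and HSP90 use ATP to refold and mature client proteins. Heat also raises hydrogen peroxide in leaf cells, which ascorbate peroxidases remove, and it alters hormone signaling.

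The 6 libraries were alike in summed FPKM and in relative depth. FPKM summed to between 783624 and 895476, and relative depth, read from the step between low values, was 0.941 to 1.11 of the median heat library. The number of fragments is unknown, so no counting interval is given. The correlation of log2(FPKM + 1) over genes was 0.948 to 0.968 within a group and 0.895 to 0.907 between the groups. The leaf label held. The 23 genes of the light-harvesting antenna had group means of 150.2 to 5923 FPKM at 0 h. They took 4.84% to 7.00% of the summed FPKM at 0 h and 6.47% to 9.34% at 2 h.

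On the deposited scale the median log2 fold change of all genes tested, 2 h against 0 h, was -0.21. Dividing each library by its median-ratio size factor brought this median to 0.00, and fold changes, tests and counts of calls are therefore given on both scales. Levels are in FPKM as deposited unless called scaled. A gene was called at an adjusted p of 0.05 or less (limma, Benjamini-Hochberg over all genes) and a change of 1 log2 unit or more in either direction. On the deposited scale 1052 genes were called, 391 higher (2.07% of genes tested) and 661 lower (3.49%) at 2 h. With median-ratio scaling 574 were higher (3.03%) and 428 lower (2.26%). The share of called genes that were higher thus moved from 37.2% to 57.3% with the scaling. The higher genes were shared between the scales in 384 cases and the lower genes in 403. All 391 higher and 661 lower genes kept their sign, which the choice of changes of 1 log2 unit or more left little room to lose. The count was 1549 when only the 6 libraries were fitted. Leaving out single libraries gave 552 (replicate 2 of 0 h), 581 (replicate 3 of 0 h), 617 (replicate 1 of 2 h) and 531 calls (replicate 2 of 2 h).

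**Figure D1:**
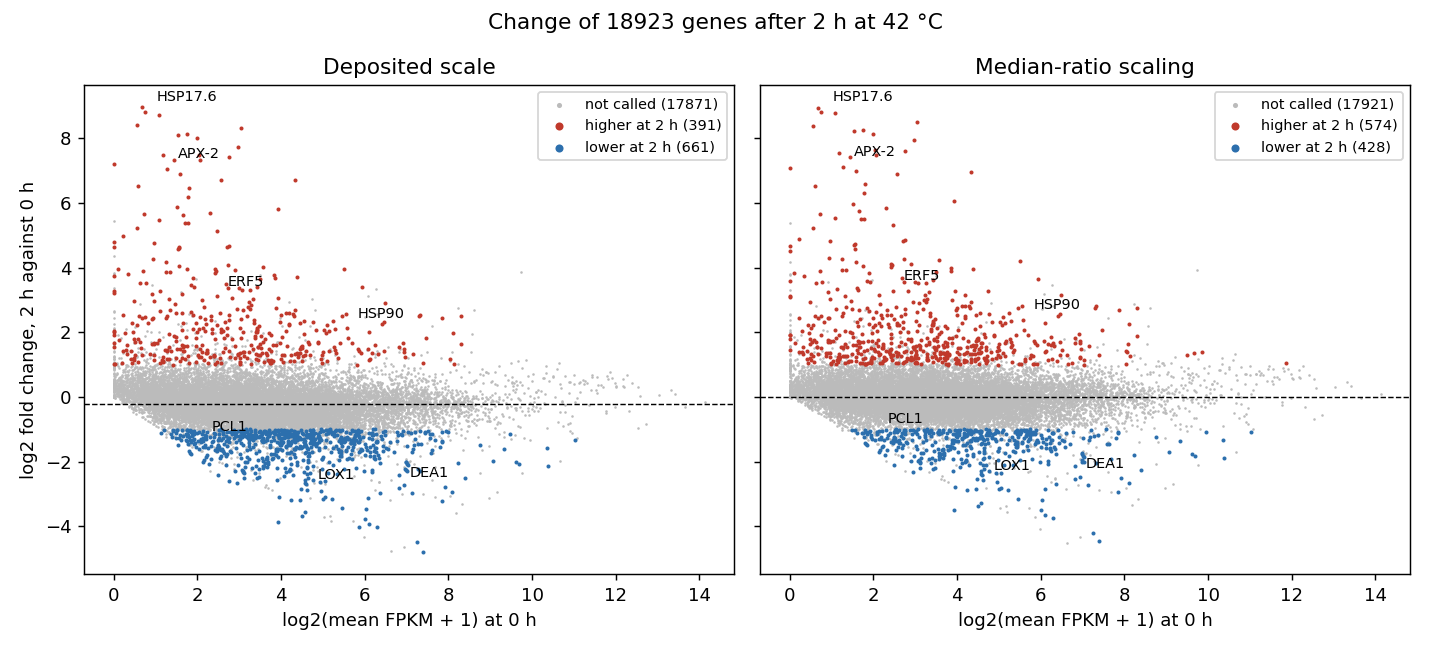
Log2 fold change of each of 18923 genes, 2 h against 0 h (y axis), against log2 of mean FPKM + 1 at 0 h (x axis), on the deposited scale (left) and with median-ratio scaling (right); red points were called higher, blue lower, and the dashed line is the median of all genes. The rises reach beyond 8 log2 units from genes near 1 FPKM, while the falls stay within 5, and the median line lies at -0.21 on the left and 0.00 on the right.

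The rises were larger than the falls on the log2 scale. Of the 391 higher genes, 180 rose by at least 2 log2 units, 84 by at least 3 and 32 by at least 5. Of the 661 lower genes, 109 fell by at least 2, 19 by at least 3 and 0 by at least 5. Since 1 FPKM is added to every value, the scale limits falls of weakly expressed genes and also shrinks rises that start from low levels. The median size was 1.85 for the higher genes and 1.36 for the lower genes. With median-ratio scaling, 208 of 574 higher genes rose by at least 2 log2 units and 59 of 428 lower genes fell by as much, with medians of 1.66 and 1.33.

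The higher genes were mostly weak in untreated leaves. The median of their mean FPKM was 5.31 at 0 h and 34.7 at 2 h, against 9.37 and 7.81 for all genes tested. Before heat, 66 of them were below 1 FPKM and 16 were at or above 100 FPKM. After 2 h, 97 were at or above 100 FPKM, and 32 of these had started below 10 FPKM and 5 below 1 FPKM. The lower genes started from a median of 18.6 FPKM and came down to 5.77, with 98 of them below 1 FPKM at 2 h. As these levels come from the libraries that chose the genes, they are a description.

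The share of the transcript pool that these genes took is likewise a description, since the same libraries chose them. The 391 higher genes took 0.848% to 0.861% of the summed FPKM in the untreated libraries and 5.58% to 6.20% in the heated ones. The 661 lower genes went from between 3.60% and 3.91% to between 1.09% and 1.38%. In whole leaves, fewer cells of a type and less RNA per cell cannot be told apart for any fall.

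A gene of the heat response stood among the largest rises. *HSP17.6* (Solyc08g062437.1), a small HSP, was at 0.842, 0.729 and 0.499 FPKM in the untreated libraries and at 686, 965 and 649 FPKM after 2 h. It was close to silent before heat and among the strongly expressed genes of the leaf after it, in every library. The log2 fold change was 8.81 ± 0.61 (SE, n = 3 per group; limma, adjusted p = 1.2e-07, and 8.81 with median-ratio scaling, adjusted p = 2.8e-06), and *HSP17.6* ranked at place 2 of the 391 higher genes. Only Solyc03g113930.3, for which no name was at hand, rose by more, from 0.517, 0.462 and 0.779 FPKM to 727, 1006 and 663 FPKM (8.96 ± 0.77, limma, adjusted p = 1.52e-06, and 8.95 with median-ratio scaling). Its libraries were as tight as those of *HSP17.6*, with replicate 2 highest at 2 h in both genes.

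*HSP90* (Solyc08g079170.3), which matures kinases, receptors and other client proteins, started from a much higher level. It was at 44.1, 48.7 and 47.1 FPKM at 0 h and at 184, 237 and 200 FPKM at 2 h, with no overlap. The log2 fold change was 2.12 ± 0.42 (limma, adjusted p = 0.00559, and 2.37 with median-ratio scaling, adjusted p = 0.00726). The calls of *HSP17.6* and *HSP90* held with each of the 6 libraries left out, at adjusted p up to 2.4e-06 and 0.0325.

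*HSP70-1* (Solyc09g011030.3), a member of the ATP-driven refolding chaperones, was at 15.8, 19.4 and 18.1 FPKM in untreated leaves and at 44.5, 42.6 and 34.8 FPKM at 2 h. All heated libraries lay above all untreated ones, but the call depended on the scaling. The log2 fold change was 1.15 ± 0.36 (limma, adjusted p = 0.0619) on the deposited scale and 1.39 (adjusted p = 0.0494) with median-ratio scaling, and the adjusted p was 0.00427 when only the 6 libraries were fitted. The factor *HSF24* (Solyc02g090820.3) gave 23.1, 22.5 and 16.7 FPKM against 22.5, 17.9 and 29.1 FPKM. Its groups overlapped, and differed by 0.14 ± 0.30 log2 units (limma, adjusted p = 0.818, or 0.38 after median-ratio scaling). Of the 4 heat-response genes, 2 were higher on the deposited scale and 3 with median-ratio scaling, and 0 were lower on either, beside 2.07% and 3.03% of all genes called higher on these scales. Their median log2 fold change was 1.63, beside -0.21 for all genes (1.88 beside 0.00 with median-ratio scaling).

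**Figure D2:**
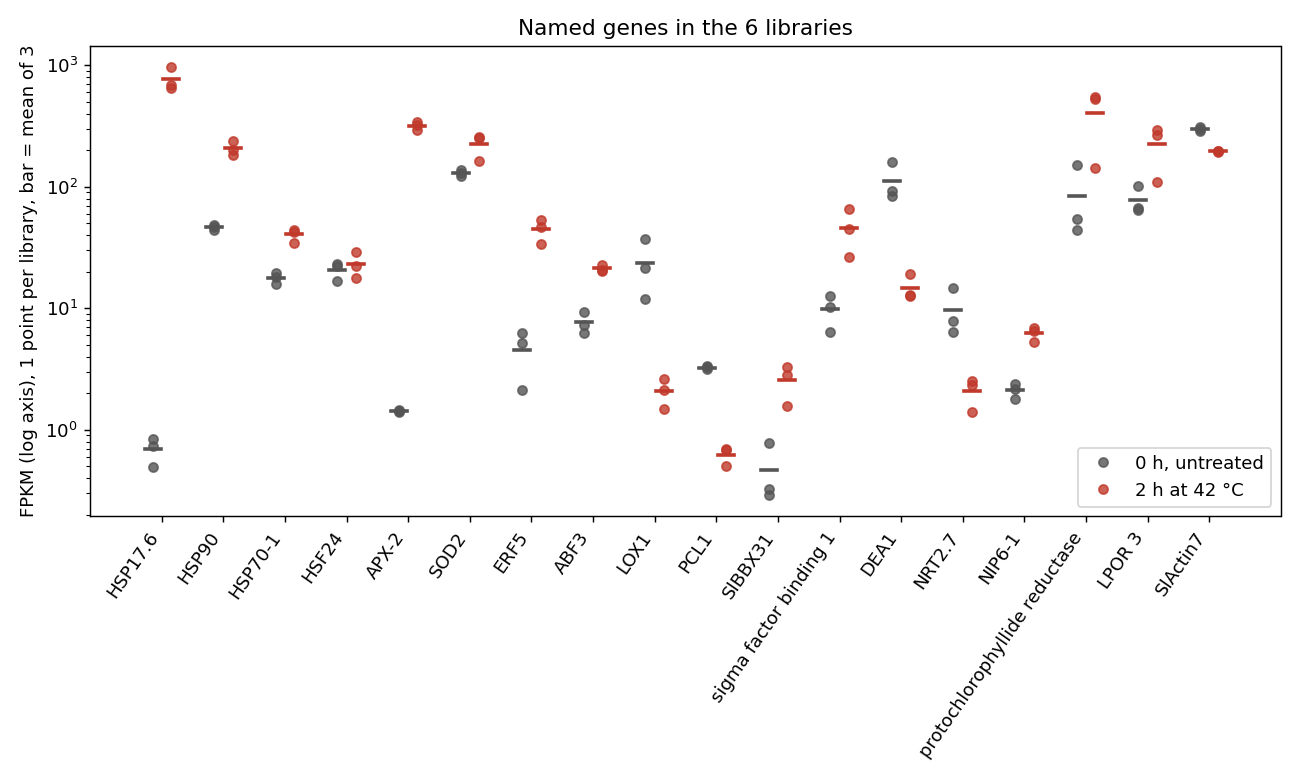
FPKM on a log axis of 18 named genes (x axis) in the 3 untreated libraries (grey) and the 3 libraries of 2 h at 42 °C (red), with 1 point per library and a bar at each group mean. HSP17.6 and APX-2 move from about the bottom of the scale to 767 and 320 FPKM, LOX1, PCL1, DEA1 and NRT2.7 come down without overlap, and HSF24 and the protochlorophyllide reductase overlap between groups.

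Among the antioxidant enzymes a single gene stood out. *APX-2* (Solyc09g007270.3), an ascorbate peroxidase that reduces hydrogen peroxide with ascorbate, was at 1.40, 1.44 and 1.46 FPKM in untreated leaves and at 295, 321 and 343 FPKM after 2 h. Libraries within each group were close to each other, and the rise was 7.04 ± 0.40 log2 units (limma, adjusted p = 1.03e-08, and 7.12 with median-ratio scaling, adjusted p = 4.15e-07). It ranked at place 16 of the higher genes, and the call held with each library left out. *SOD2* (Solyc06g048410.4), a superoxide dismutase that turns superoxide into hydrogen peroxide, was at 137, 131 and 124 FPKM before heat and at 257, 253 and 162 FPKM after it. It was separated in all libraries and passed the p threshold on both scales, but reached the minimum fold only with median-ratio scaling (0.75 ± 0.22, limma, adjusted p = 0.0491, and 1.00 with median-ratio scaling, adjusted p = 0.0217).

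*POD* (Solyc01g105070.3), a peroxidase, was weak in both groups, at 2.87, 1.94 and 0.887 FPKM before and at 0.799, 0.868 and 0.601 FPKM after heat. Its heated libraries all lay below the untreated ones on the deposited scale, by a narrow margin. It was not called (-0.67 ± 0.29, limma, adjusted p = 0.178, and -0.48 with median-ratio scaling). Of 8 antioxidant and redox genes 7 were tested, of which 1 was higher and 0 were lower on the deposited scale (2 and 0 after scaling), beside 2.07% and 3.49% of all genes (3.03% and 2.26% after scaling). The median of the 7 was -0.40, below the -0.21 of all genes, and it was -0.25 with median-ratio scaling.

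Hormone genes moved in both directions. *ERF5* (Solyc03g093560.1), a transcription factor of ethylene responses, was at 2.14, 6.32 and 5.14 FPKM at 0 h and at 53.3, 34.01 and 46.8 FPKM at 2 h. The heated libraries were all above the untreated ones, by 3.11 ± 0.66 log2 units (limma, adjusted p = 0.00927, and 3.28 with median-ratio scaling, adjusted p = 0.00509). The call held with each library left out, with an adjusted p of up to 0.0485, but was lost with a pseudocount of 0.1 (adjusted p = 0.105). *ABF3* (Solyc01g108080.4), a factor that binds abscisic acid response elements, was at 6.29, 7.36 and 9.30 FPKM before heat and at 22.8, 20.7 and 20.4 FPKM after it. The groups were apart and the heated libraries close together (1.38 ± 0.35, limma, adjusted p = 0.0271, and 1.59 with median-ratio scaling, adjusted p = 0.0399). The call of *ABF3* was lost with any 1 of the 6 libraries left out, with adjusted p from 0.0548 (replicate 3 of 0 h left out) to 0.1014 (replicate 1 of 0 h).

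*LOX1* (Solyc08g029000.3), a lipoxygenase, which oxidizes fatty acids in the branch of metabolism that also makes jasmonate, fell. It was at 37.1, 21.4 and 11.9 FPKM in untreated leaves, with a wide spread, and at 2.63, 2.13 and 1.49 FPKM after 2 h. The log2 fold change was -2.87 ± 0.56 (limma, adjusted p = 0.00502, and -2.58 with median-ratio scaling, adjusted p = 0.00729), and the call held with each library left out, at adjusted p up to 0.0327. *ACO4* (Solyc02g081190.4), which catalyses the last step of ethylene synthesis, was at 448, 371 and 247 FPKM before and at 212, 202 and 200 FPKM after heat. It was lower in all heated libraries without being called (-0.75 ± 0.31, limma, adjusted p = 0.162, and -0.49 with median-ratio scaling).

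*NCED3* (Solyc07g056570.1), the enzyme of the rate-limiting cleavage step in abscisic acid synthesis, overlapped between the groups at 21.2, 12.0 and 7.66 FPKM against 37.1, 21.5 and 20.5 FPKM (0.96 ± 0.77, limma, adjusted p = 0.474, and 1.19 with median-ratio scaling). *ACS6* (Solyc08g081550.4), which makes the ethylene precursor, gave 6.13, 3.54 and 2.78 FPKM against 5.21, 3.92 and 2.798 FPKM, and the sign of its small difference changed with the scaling (-0.03 on the deposited scale, 0.17 with median-ratio scaling). Of the 16 hormone genes, all tested, 2 were higher and 1 was lower on both scales, beside 2.07% and 3.49% of all genes (3.03% and 2.26% after scaling). With only the 6 libraries in the fit 4 were lower on the deposited scale (25%, beside 5.36% of all genes). Their median log2 fold change was -0.06, and 0.17 with median-ratio scaling.

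Among the 5 light and clock regulators 0 were higher and 1 was lower on both scales, beside 3.49% of all genes lower (2.26% after scaling). The transcription factor PCL1 (Solyc06g076350.3), whose Arabidopsis counterpart belongs to the evening complex of the circadian clock, was at 3.27, 3.33 and 3.14 FPKM at 0 h and at 0.680, 0.502 and 0.693 FPKM at 2 h. Both groups were tight and far apart (-1.39 ± 0.26, limma, adjusted p = 0.00411, and -1.15 with median-ratio scaling, adjusted p = 0.00869), and the call held with each library left out. As a clock gene it also varies with time of day, which cannot be told apart from heat here. *SlBBX31* (Solyc06g063280.1), a B-box zinc-finger protein and the subject of the study, was at 0.325, 0.292 and 0.773 FPKM in untreated leaves and at 3.28, 2.84 and 1.56 FPKM after 2 h.

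The heated libraries of *SlBBX31* all lay above the untreated ones at these low levels, and the call depended on the fit. The log2 fold change was 1.26 ± 0.39 (limma, adjusted p = 0.0587, and 1.28 with median-ratio scaling, adjusted p = 0.0766). With only the 6 libraries in the fit the adjusted p was 0.0143, and with a pseudocount of 0.1 it was 0.0288. The 2 CONSTANS-LIKE genes and the response regulator of the list overlapped between the groups and were not called.

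No photosynthesis gene of the lists was called lower at 2 h. None of the 23 antenna genes, which bind chlorophyll around the photosystems, was called on either scale, with 0 higher and 0 lower (smallest adjusted p, limma, 0.201 on the deposited scale and 0.0615 with median-ratio scaling). Of all genes, 2.07% were called higher and 3.49% lower (3.03% and 2.26% after scaling). An unadjusted limma p under 0.05 was reached by 1 of the antenna genes on the deposited scale and by 5 after scaling. For counts at an unadjusted p no share over all genes is given, here or below. Whether such a count is above that share therefore cannot be told. With only the 6 libraries in the fit 1 of the antenna genes, *LHCb6*, was called higher (4.35%, beside 2.82% of all genes, on the deposited scale). Group means at 0 h ran from 150.2 to 5923 FPKM. Of the 23, 22 had a positive log2 fold change on the deposited scale and 23 with median-ratio scaling, with medians of 0.64 and 0.90 beside -0.21 and 0.00 for all genes.

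Heated libraries lay above untreated ones without overlap in 4 of the 23 antenna genes and below in 0, beside 11.1% and 35.4% of all genes tested. After median-ratio scaling they were above in 8 and below in 0, beside 21.8% and 22.3% of all genes. *LHCb6* (Solyc01g105030.3), a minor antenna protein of photosystem II, was 1 of the 4 on the deposited scale, at 1855, 1600 and 1340 FPKM before and at 3732, 3585 and 2683 FPKM after heat (1.06 ± 0.49, limma, adjusted p = 0.201, and 1.32 with median-ratio scaling). The other 3 were *LHCa2* and 2 genes named *LHCa3*. Of the antenna genes, 1 with the name *LHCb1* (Solyc02g070990.1) had a negative value on the deposited scale only (-0.18 ± 0.72, limma, adjusted p = 0.904, and 0.08 with median-ratio scaling), from 1593, 775 and 580 FPKM to 1088, 1268 and 354 FPKM. The 8 *LHCb1* genes have neighbouring IDs on chromosome 2, and reads of near-identical copies could have been split among them.

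The libraries were ordered alike in all of these genes. Replicate 3 was the lowest of the 3 heated libraries in 23 of the 23 antenna genes, and replicate 1 was the highest of the untreated libraries in 23 of 23. Summed over the list, the antenna gave 59861, 44813 and 39209 FPKM at 0 h and 79972, 81040 and 50713 FPKM at 2 h. The sum in replicate 3 of 2 h thus lay below that in replicate 1 of 0 h, and what separates these libraries was not tested.

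The same order held in all 7 genes of photosystem I and chlorophyll synthesis. The protochlorophyllide reductase (Solyc12g013710.2), which makes chlorophyllide in the light, was at 152, 54.8 and 44.3 FPKM before heat and at 526, 547 and 143 FPKM after it. It was called higher (2.25 ± 0.64, limma, adjusted p = 0.0433, and 2.50 with median-ratio scaling, adjusted p = 0.0189) although the lowest heated library lay under the highest untreated one. It was the only gene of the 1052 whose groups overlapped on the deposited scale, and they did not overlap after scaling. Leaving out single libraries gave an adjusted p of 0.156 (replicate 2 of 0 h), 0.173 (replicate 3 of 0 h), 0.152 (replicate 1 of 2 h) and 0.194 (replicate 2 of 2 h), and it was 0.0511 with only the 6 libraries in the fit.

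A second light-dependent oxidoreductase of the same step (LPOR 3, Solyc10g006900.3) was at 101.1, 67.4 and 64.8 FPKM at 0 h and at 269, 295 and 109 FPKM at 2 h. The groups were just apart, and it was called with median-ratio scaling only (1.42 ± 0.43, limma, adjusted p = 0.0552, and 1.67 with median-ratio scaling, adjusted p = 0.0127). The 5 photosystem I subunits had log2 fold changes between 0.31 and 0.71 and were not called on either scale. Over the list of 7, 1 was higher and 0 lower (2 and 0 after scaling), beside 2.07% and 3.49% of all genes (3.03% and 2.26% after scaling). With a pseudocount of 0.1 or no filter 0 were higher. The median was 0.66 (0.91 with median-ratio scaling).

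**Figure D3:**
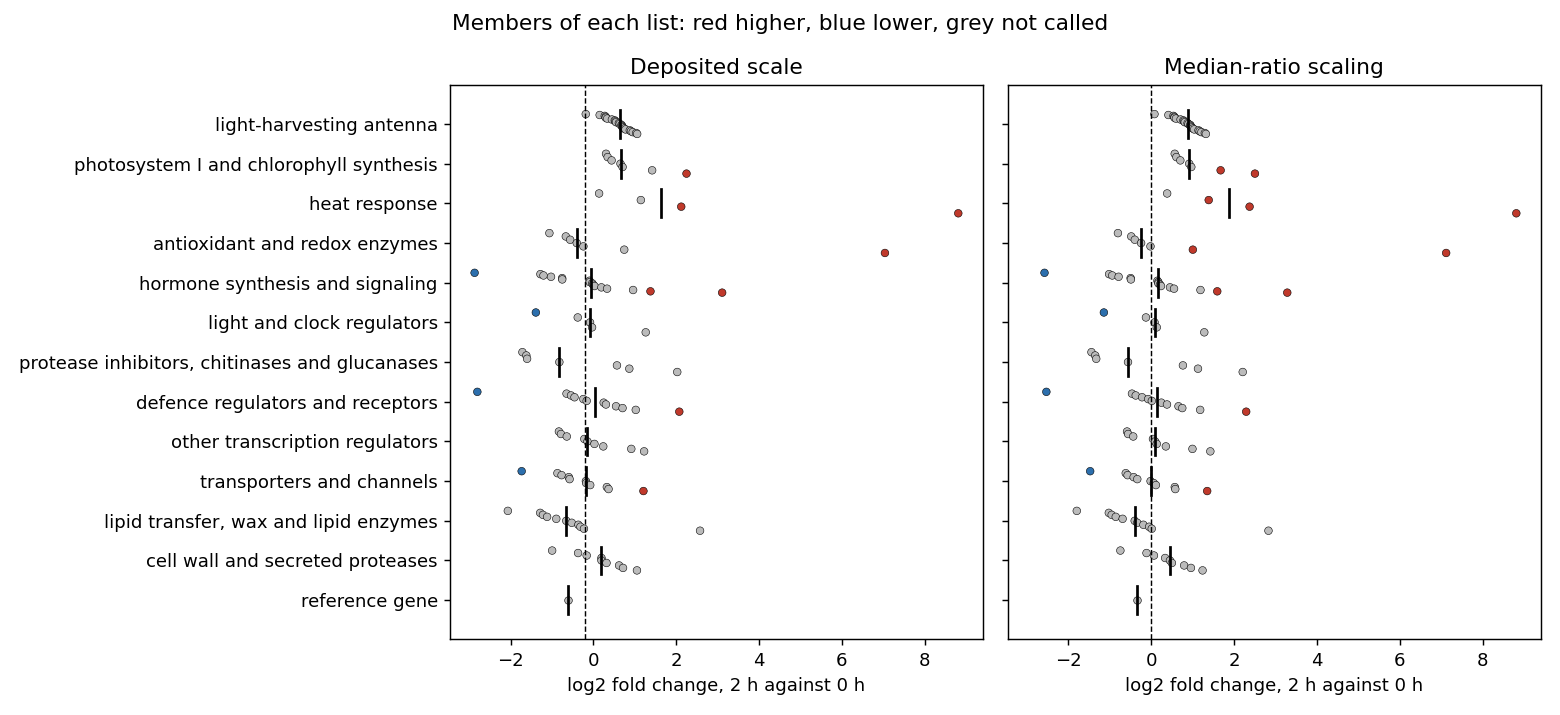
Log2 fold change, 2 h against 0 h (x axis), of each tested member of 13 gene lists (rows), on the deposited scale (left) and with median-ratio scaling (right); red points were called higher, blue lower and grey not called, short bars mark list medians, and the dashed line is the median of all genes. The 23 antenna points sit together around a median of 0.64 (left) or 0.90 (right) with none called, and the heat-response and antioxidant lists each hold a single point beyond 7.

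Defence genes were called singly. The chloroplastic sigma factor binding protein 1 (Solyc01g096510.2), which in Arabidopsis acts as a WRKY partner in defence, was at 10.3, 12.8 and 6.35 FPKM at 0 h and at 65.8, 26.7 and 45.01 FPKM at 2 h. All heated libraries were higher (2.07 ± 0.49, limma, adjusted p = 0.0167, and 2.29 with median-ratio scaling, adjusted p = 0.00494). It was lost on leaving out replicate 3 of 0 h (adjusted p = 0.0874) or replicate 1 of 2 h (adjusted p = 0.0852). The DEA1 precursor (Solyc08g078900.1), named after its induction by arachidonic acid, fell from 159, 93.0 and 83.7 FPKM to 12.8, 19.1 and 12.6 FPKM.

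The fall of DEA1 was large and without overlap, but its test was near the threshold (-2.801 ± 0.78, limma, adjusted p = 0.0399, and -2.53 with median-ratio scaling, adjusted p = 0.0457). It was lost with any 1 of the 6 libraries left out, with adjusted p from 0.0887 (replicate 3 of 0 h left out) to 0.135 (replicate 1 of 0 h). Of the 12 defence regulators and receptors, 1 was higher and 1 was lower on both scales, beside 2.07% and 3.49% of all genes (3.03% and 2.26% after scaling). The lower call was also lost with a pseudocount of 0.1 and with no filter, and the higher call with no filter. The median was 0.04 (0.13 with median-ratio scaling). The 4 WRKY genes overlapped between the groups. Of 8 protease inhibitors, chitinases and glucanases 7 were tested, and 0 were higher and 0 lower on either scale, with 4 and 2 of them at an unadjusted limma p under 0.05. Values lay between -1.71 and 2.03, with a median of -0.82 (-0.56 with median-ratio scaling).

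In the transporters, 1 nitrate transporter fell and 1 aquaporin rose. The high affinity nitrate transporter 2.7 (NRT2.7, Solyc02g067790.4), whose Arabidopsis counterpart loads nitrate into the vacuole, was at 14.7, 7.82 and 6.40 FPKM at 0 h and at 2.50, 1.40 and 2.32 FPKM at 2 h. The groups were apart (-1.73 ± 0.36, limma, adjusted p = 0.00849, and -1.48 with median-ratio scaling, adjusted p = 0.00547), and the call was lost on leaving out replicate 1 of 0 h (adjusted p = 0.0501) or replicate 2 of 2 h (adjusted p = 0.0533). The aquaporin NIP6-1 (Solyc03g117050.4), a channel that in Arabidopsis carries boric acid to young tissue, rose from 1.79, 2.39 and 2.18 FPKM to 5.24, 6.87 and 6.56 FPKM.

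*NIP6-1* was separated in all libraries (1.21 ± 0.30, limma, adjusted p = 0.0233, and 1.35 with median-ratio scaling, adjusted p = 0.0122), but its call held only without replicate 1 of 2 h (adjusted p = 0.0496) and not without any other single library, where the adjusted p reached 0.0998 without replicate 2 of 2 h. Of 12 transporters and channels 11 were tested, with 1 higher and 1 lower on both scales, beside 2.07% and 3.49% of all genes (3.03% and 2.26% after scaling). Their median was -0.18 (-0.02 with median-ratio scaling). Of 9 other transcription regulators tested, of 10 listed, 0 were higher and 0 lower on either scale (limma, 3 and 1 at an unadjusted p under 0.05). The histone demethylase gene JMJ524 (Solyc01g006680.4) among them went from 0.996, 0.757 and 1.00 FPKM to 2.53, 2.91 and 2.42 FPKM. It passed the p threshold without reaching the minimum fold on log2(FPKM + 1) (0.92 ± 0.26, limma, adjusted p = 0.041, and 0.99 with median-ratio scaling, adjusted p = 0.0164). At such low levels the 1 FPKM added before the log shrinks a change.

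Lipid and wall genes gave no call. Of 13 lipid transfer, wax and lipid genes 11 were tested, with 0 higher and 0 lower on either scale (limma, 6 and 4 at an unadjusted p under 0.05). Of all genes, 2.07% were higher and 3.49% lower (3.03% and 2.26% after scaling). The median of the 11 was -0.65, below that of all genes on both scales (-0.40 with median-ratio scaling). Negative values were found in 10 of the 11 (9 with median-ratio scaling). Of 10 cell wall and secreted protease genes 9 were tested, with 0 calls on either scale (limma, 0 and 1 at an unadjusted p under 0.05) and a median of 0.20 (0.45 with median-ratio scaling). *SlActin7* (Solyc03g078400.3), the actin gene used as reference in quantitative PCR of the study, was at 302, 290 and 310 FPKM at 0 h and at 199, 197 and 193 FPKM at 2 h.

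Actin was lower in all heated libraries with little spread, and was not called (-0.61 ± 0.25, limma, adjusted p = 0.149, and -0.35 with median-ratio scaling, adjusted p = 0.305). With only the 6 libraries in the fit its adjusted p was 0.00868, at a fold below the minimum of 1.

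The study's lists of genes that answer to *SlBBX31* were followed as well. They were chosen in overexpression and knockout lines of other plants, not in these libraries. Of the 112 genes that overexpression lowered and knockout raised 99 were tested, of which 4 were higher and 1 was lower at 2 h (5 and 1 after scaling). On the deposited scale these were 4.04% and 1.01%, beside 2.07% and 3.49% of all genes (3.03% and 2.26% after scaling). The median of the 99 was 0.05 (0.24 with median-ratio scaling). These counts depended on the fit. With only the 6 libraries 6 were higher and 8 lower on the deposited scale, 6.06% and 8.08% beside 2.82% and 5.36% of all genes. On that scale the share lower was then above that of all genes. With median-ratio scaling as well, 2 of the 99 were lower, beside 514 of the 18923 genes tested. With a pseudocount of 0.1 or no filter 0 members were higher and 0 lower. Members higher numbered 0 on leaving out replicate 2 or 3 of 0 h or replicate 2 of 2 h, 1 on leaving out replicate 1 of either group, and 2 on leaving out replicate 3 of 2 h. The member called lower with all libraries, DEA1, was lost with any 1 of the 6 libraries left out. Members lower numbered 0 on leaving out replicate 1 of either group or replicate 2 of 0 h.

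Of the 72 genes that overexpression raised and knockout lowered 64 were tested, of which 1 was higher and 3 were lower (2 and 3 after scaling). On the deposited scale these were 1.56% and 4.69%, beside 2.07% and 3.49% of all genes (3.03% and 2.26% after scaling). With only the 6 libraries 3 were higher and 4 lower, 4.69% and 6.25% beside 2.82% and 5.36% of all genes. With the scaling as well 5 of the 64 were higher, beside 709 of the 18923 genes tested. No member was higher (0) with no filter, on leaving out replicate 3 of 0 h, or on leaving out replicate 1 of 2 h, and 1 was lower on leaving out replicate 1 of 0 h or replicate 2 of 2 h. Their median was -0.20 (0.01 with median-ratio scaling).

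Besides genes described above, these lists held 3 that were called. An F-box/kelch-repeat protein (Solyc05g005150.1), of a family that marks proteins for breakdown, rose from 7.24, 5.65 and 3.60 FPKM to 30.1, 18.1 and 22.5 FPKM (1.93 ± 0.53, limma, adjusted p = 0.0387, and 2.12 with median-ratio scaling, adjusted p = 0.00848). An uncharacterized protein (LOC101268883, Solyc07g052950.3) rose from 23.9, 19.6 and 23.9 FPKM to 103, 113 and 60.7 FPKM (1.95 ± 0.57, limma, adjusted p = 0.0476, and 2.19 with median-ratio scaling, adjusted p = 0.025). Neither overlapped between groups, and both calls were lost with any 1 of the 6 libraries left out, with adjusted p from 0.0655 (replicate 1 of 0 h left out) to 0.154 (replicate 3 of 0 h) for the first and from 0.0541 (replicate 3 of 2 h) to 0.182 (replicate 2 of 2 h) for the second.

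An AAA-ATPase (Solyc03g033840.4), a protein that uses ATP to remodel other proteins, fell from 11.7, 17.9 and 7.72 FPKM to 3.14, 1.79 and 3.499 FPKM (-1.78 ± 0.43, limma, adjusted p = 0.0189, and -1.52 with median-ratio scaling, adjusted p = 0.00869). Its call was lost without replicate 1 of 0 h (adjusted p = 0.057), replicate 2 of 0 h (0.107), replicate 1 of 2 h (0.0516) and replicate 2 of 2 h (0.102).

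The deepest falls were in genes without a name at hand. Solyc06g066700.1 went from 231, 124 and 142 FPKM to 18.6 and 8.97 FPKM in replicates 1 and 2 of 2 h and was listed at 0 in replicate 3 (-4.79 ± 0.86, limma, adjusted p = 0.00288, and -4.46 with median-ratio scaling, adjusted p = 0.00567). Without replicate 3 of 2 h it was -3.52 (adjusted p = 0.00715). Solyc09g082660.3 went from 131, 209 and 114 FPKM to 4.80, 2.76 and 11.9 FPKM (-4.49 ± 0.71, limma, adjusted p = 0.00094, and -4.21 with median-ratio scaling, adjusted p = 0.00113). Both were well expressed in untreated leaves and near the bottom of their range in every heated library.

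Across all genes, separation of the libraries was far more common than a call. The 3 heated libraries were all above the 3 untreated ones in 11.1% of genes tested and all below in 35.4%, and after median-ratio scaling in 21.8% and 22.3%. All 661 lower genes and 390 of the 391 higher genes were separated in this way (656 and 391 after scaling). An exact test over the 20 ways to relabel the 6 libraries (permutation, two-sided) cannot give a p below 0.1, and it gave 0.1 for each named gene whose groups did not overlap.

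The levels at later times were read from the same table. *HSP17.6* was at 767 ± 173 FPKM at 2 h (SD, n = 3, as for the values that follow), 29.7 ± 10.3 at 4 h and 216 ± 53.1 at 24 h. *HSP90* was at 207 ± 27.1, 40.9 ± 11.6 and 420 ± 307 FPKM at these times. *APX-2* went from 320 ± 24.3 at 2 h through 73.1 ± 12.9 at 4 h and 23.5 ± 14.8 at 12 h to 226 ± 22.3 FPKM at 24 h. These 3 genes were thus higher at 2 h than at 4 h in every library, and at 24 h above the level of 4 h in every library.

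Other genes took other courses. *ERF5* stood at 44.7 ± 9.81 at 2 h, 45.05 ± 18.3 at 4 h and 5.97 ± 6.27 FPKM at 24 h, overlapping between 2 h and 4 h. *ABF3* was at 21.3 ± 1.29 at 2 h, 7.99 ± 0.99 at 4 h and 83.0 ± 40.3 FPKM at 24 h. PCL1 was at 0.625 ± 0.107 at 2 h, 0.701 ± 0.253 at 4 h and 4.70 ± 1.68 FPKM at 12 h, beside 3.25 ± 0.097 at 0 h. The protochlorophyllide reductase was at 405 ± 227 at 2 h, 145 ± 64.7 at 4 h and 1.37 ± 0.79 FPKM at 24 h. Its group mean was highest at 2 h, but replicate 3 of 2 h, at 143 FPKM, lay below replicate 1 of 0 h and below 2 libraries of 4 h.

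**Figure D4:**
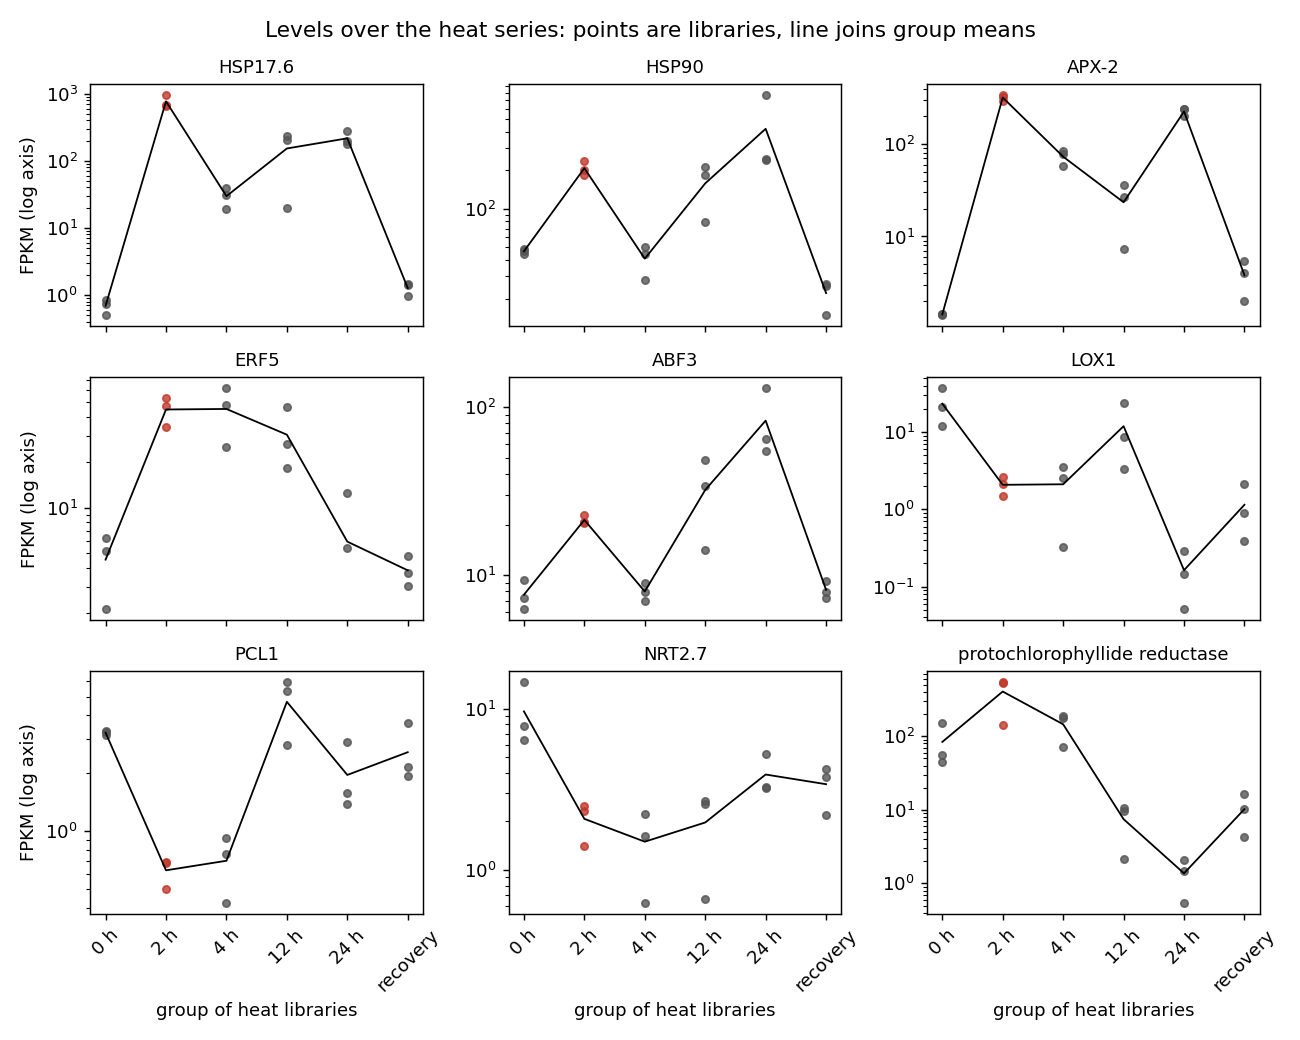
FPKM on a log axis (y axis, scaled for each gene) of 9 genes called at 2 h, in the 6 groups of the heat series (x axis), with 1 point per library, red at 2 h, and a line through the group means; 1 library of ERF5 at 24 h, listed at 0, is not drawn. HSP17.6, HSP90 and ABF3 come down from 2 h to 4 h and rise again by 24 h, while the protochlorophyllide reductase comes down to 1.37 FPKM by 24 h.

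Over the 391 higher genes the median of mean FPKM was 5.31 in untreated leaves and 34.7 after 2 h, followed by 17.7 (4 h), 34.7 (12 h), 33.0 (24 h) and 5.59 (recovery). That of the 661 lower genes was 18.6, 5.77, 5.53, 4.69, 2.42 and 5.99 FPKM at the same times. All genes tested had medians of 9.37, 7.81, 6.65, 8.18, 5.80 and 5.43 FPKM. After median-ratio scaling the higher genes had medians of 3.99 scaled FPKM at 0 h, 31.3 at 2 h and 6.72 after recovery, and the lower genes 13.9, 5.26 and 7.11, beside 7.05, 6.99 and 6.43 for all genes tested. The genes were chosen on the 0 h and 2 h values, so a return toward the 0 h level cannot be read from these medians.

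The genes called at 2 h of heat were also looked up in the drought series of the same cultivar. Its 3 control libraries (0 d) are other libraries than those of the heat series, from M82 leaves taken when the pots had begun to dry. Their columns are headed CK and not 0 d. They were taken as the 0 d group because no other control columns were present, and the labels do not state this tie. The drought table was treated as normalized separately. Of 19963 genes tested there with all 21 libraries, 6.79% were higher and 8.27% lower after 1 d without water, and 13.5% and 17.7% after 5 d. Of the 391 higher genes 365 were tested, and 120 of them (32.9%) were higher at 1 d and 171 (46.8%) at 5 d. These were 8.85% of the 1356 genes higher at 1 d and 6.35% of the 2695 higher at 5 d. In the opposite direction, 26 (7.12%) were lower at 1 d and 37 (10.1%) at 5 d.

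Of the 661 lower genes 647 were tested, and 142 (21.9%) were lower at 1 d and 212 (32.8%) at 5 d. These were 8.60% of the 1651 genes lower at 1 d and 5.99% of the 3542 lower at 5 d. In the opposite direction, 33 (5.10%) were higher at 1 d and 63 (9.74%) at 5 d. Genes called at 2 h of heat were thus called in the same direction in drought at a higher rate than the genes of the drought table as a whole, while opposite calls were at or below that rate. With median-ratio scaling of the drought table, 30.7% of the 391 genes were higher at 1 d and 41.9% at 5 d, beside 5.76% and 10.4% of all genes, and 24.3% and 38.3% of the 661 were lower, beside 9.83% and 20.4%. No test was made of these shares.

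**Figure D5:**
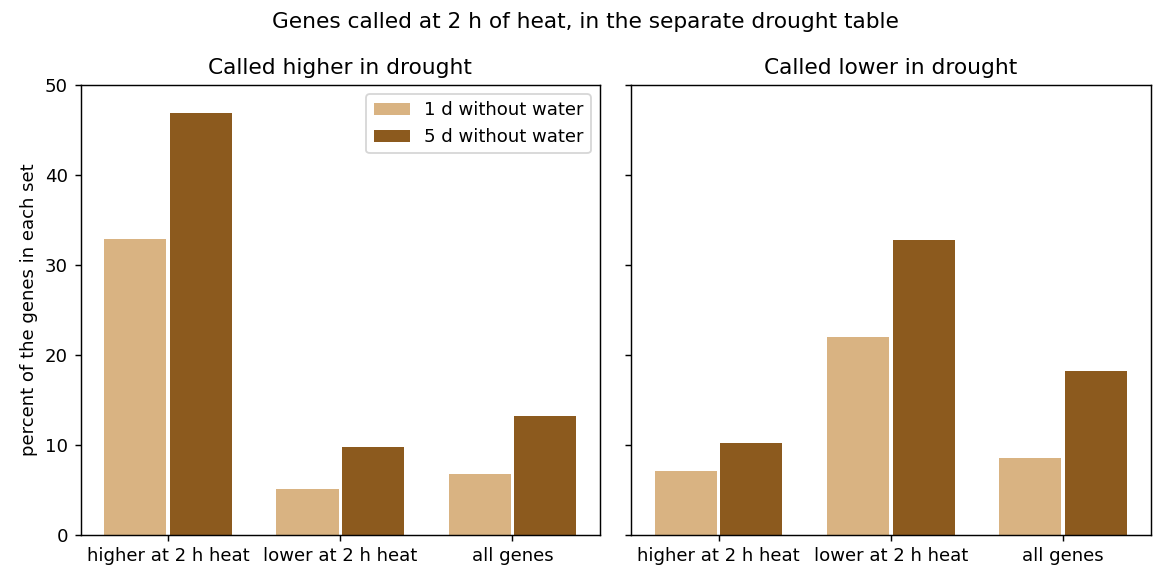
Percent of genes (y axis) called higher (left) or lower (right) in the drought table after 1 d (light) or 5 d (dark) without water, for genes higher at 2 h of heat, genes lower at 2 h of heat and all genes tested in both tables (x axis). Of the genes higher at 2 h of heat 46.8% were higher at 5 d of drought, beside 13.2% of all genes, and of those lower at 2 h 32.8% were lower, beside 18.2%.

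Named genes fell into several patterns there. *APX-2* rose in drought from 0.422 ± 0.341 FPKM to 5.46 ± 2.01 at 1 d and 30.7 ± 18.9 at 5 d (limma, adjusted p = 0.000232 and 4.65e-08), well below its 320 ± 24.3 FPKM at 2 h of heat, a level set across separate tables. *ERF5* rose from 12.0 ± 8.76 to 214 ± 46.99 FPKM at 1 d (adjusted p = 5.73e-06), and the sigma factor binding protein 1 from 9.03 ± 7.66 to 98.5 ± 26.02 FPKM (adjusted p = 2.21e-06, both limma). *LOX1*, DEA1 and the AAA-ATPase were lower at both times, as after 2 h of heat.

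Others differed. *HSP90* was at 44.7 ± 2.05, 60.5 ± 4.77 and 75.3 ± 14.4 FPKM at 0 d, 1 d and 5 d, below the minimum fold at both times, and *ABF3*, at 16.5 ± 3.99, 8.43 ± 1.03 and 12.6 ± 4.34 FPKM, was not called. The protochlorophyllide reductase, higher at 2 h of heat, was at 227 ± 71.0, 88.7 ± 25.9 and 1.12 ± 0.57 FPKM and was called lower at both times (limma, adjusted p = 0.0169 and 9.26e-10). NRT2.7, lower at 2 h of heat, was called higher at 5 d (1.96 ± 0.75 against 8.47 ± 7.17 FPKM, limma, adjusted p = 0.00943). No test was made between heat and drought.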

How the data were processed

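RNA was sequenced from M82 leaves, with 3 libraries per group. The methods of the study call those of the heat series biological replicates and do not say this of the drought series. Per the labels, the authors used Trimmomatic, TopHat and Cuffdiff, and the deposited values are FPKM per gene and library. The reference, ITAG4.0, is named in the methods. A count model was not used, since FPKM hold no counts.

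Tests ran on log2(FPKM + 1) in limma (version 3.58.1, R version 4.3.3) with a mean-variance trend in the empirical Bayes step. All 18 heat libraries were fitted at once, so that the spread is shared with the other heat groups. The drought table was fitted likewise with 21 libraries. Genes below 1 FPKM in all but 2 libraries were left out. Median-ratio size factors came from genes above 0 in every library and were 1.28 to 1.36 at 0 h and 0.973 to 1.20 at 2 h. Gene lists and names come from the study's supplementary table, and the members and lists were chosen with earlier results of these data known. Genes named are those with a symbol and ID in the study, list members called at 2 h, and the largest rises and falls whose libraries do not overlap. JMJ524, LPOR 3 and a few uncalled members were named after their values were seen. No ID matched the reference table at hand, so keyword lists and promoter motifs were not run and no coordinates or sequences are given. Near-identical genes can share reads. Alternatives were equal FPKM sums, median-ratio scaling, a pseudocount of 0.1, no filter or at least 5 FPKM, the 6 libraries only, a replicate block, each library left out, and other minimum folds.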

Additional observations from a re-analysis of the deposited data

How the results depend on the processing

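On the deposited scale 1052 genes were called, 391 higher and 661 lower. The total was 660 with no filter on low values and 289 with a minimum log2 fold change of 2, and 531 to 875 with 1 library left out. The higher genes numbered 251 (without replicate 1 of 2 h) to 347 with 1 library left out, 709 with median-ratio scaling and only the 6 libraries, and 180 with a minimum of 2. The lower genes numbered 428 with median-ratio scaling, 384 with a pseudocount of 0.1, 386 with no filter, 1015 with only the 6 libraries and 109 with a minimum of 2. With 1 library left out they numbered 253 to 528: 412, 291 and 314 for replicates 1, 2 and 3 of 0 h, and 366 and 253 for replicates 1 and 2 of 2 h. With median-ratio scaling they numbered 280 (without replicate 2 of 0 h) to 413, an alternative chosen after seeing the data. A fit without a library also estimates the spread from fewer samples. All 391 and 661 genes kept their sign in each fit that held them. This is a description, since genes chosen for a change of at least 1 log2 unit had little room to change sign. Same-numbered libraries did not deviate together (correlations of -0.01, -0.06 and 0.09), and with the replicate number as a block 982 genes were called, 385 higher and 597 lower. Small differences that changed sign were those of *LHCb1* (Solyc02g070990.1; 0.076 with median-ratio scaling, also with only the 6 libraries, and -0.53 to 0.39 with 1 library left out), *LHCb1* (Solyc02g070980.1; -0.077 to 0.51), *HSF24* (-0.034 to 0.30) and *ACS6* (0.17 with median-ratio scaling in both fits, and -0.22 to 0.24). Over 50 genes and 17 alternatives, 753 values kept direction and call, 66 lost and 17 gained the call, and 12 changed sign. Depth could not be read as counts.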

Other observations

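Some called genes had neighbours called in the same direction on the deposited scale. Among the genes tested, ordered by ID, the higher genes held 20 runs of at least 2 consecutive IDs, with 49 of the 391 genes (12.5%), and the lower genes 48 runs, with 104 of the 661 (15.7%). How many runs scattered calls would give was not computed. More of all genes were called lower (3.49%) than higher (2.07%), so these shares cannot be compared with each other. The longest run was of 5 higher genes on chromosome 6, with log2 fold changes from 1.68 to 8.31. *ERF5* stood at the end of a run of 3 on chromosome 3, with log2 fold changes from 2.52 to 3.11. Reads of near-identical neighbours could have been split among them, which was not tested.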
